A study of Mus musculus with 12 samples.

Results

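The genes described here encode 7 enzymes of heme synthesis, Alas1, Alad, Uros, Urod, Cpox, Ppox and Fech, and were taken by symbol from a table of liver mRNA levels over the day. All 7 were found among the 20069 genes of the table, and all 7 passed the minimum for expression, which 10198 genes passed (at least 1 sample above 8 reads per base pair, rpbp). Polyadenylated RNA was profiled by RNA-Seq in livers of wild-type C57BL/6 male mice, adults of 3 to 6 months kept in a cycle of 12 hr light and 12 hr darkness. Livers were collected every 4 hr at Zeitgeber time (ZT) 2, 6, 10, 14, 18 and 22, where lights went on at ZT0 and off at ZT12, and each time point has 2 samples from 2 independent series of 6 time points. No control condition exists in this design, so each comparison is between times of day or between genes. Nothing in the sources used here says how many animals a sample holds, and p-values measure the spread between these samples.

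Heme is built from glycine and succinyl-CoA in a pathway that starts in mitochondria, continues in the cytosol and ends in mitochondria with the insertion of iron. ALAS1 catalyses the rate-limiting first step in liver, and heme represses its own synthesis by lowering ALAS1. ALAD joins pairs of 5-aminolevulinic acid into porphobilinogen, UROS closes the ring of uroporphyrinogen III, UROD and CPOX shorten its side chains, PPOX oxidises it to protoporphyrin and FECH inserts the iron. Liver uses most of this heme for cytochrome P450 enzymes.

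In the mm9 genome (GENCODE annotation), the gene bodies lie at chr9:106135786-106150457 for Alas1, chr4:62170203-62180952 for Alad, chr7:140877926-140901755 for Uros, chr4:116662570-116667018 for Urod, chr16:58670321-58680504 for Cpox and chr1:173206121-173211317 for Ppox, all protein-coding, with Cpox on the plus strand and the others on the minus strand. The signal was counted over exons without strand, so reads from overlapping exons on opposite strands cannot be told apart. Ppox shares 791 of its 4515 exon bases (17.5%) with B4galt3, and Alas1 shares 114 of 4310 (2.65%) with the non-coding RNA 4930500F10Rik.

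Promoter windows of 300 bases, from 250 before to 50 after an annotated start, were matched by symbol in RefSeq (GRCm38.p6) for 6 of the 7 genes. The 3 windows printed belong to Alas1 and to Alad, the genes called rhythmic in these data, and to Urod, whose level varied least. They are the window of the more downstream of 2 Alas1 starts (chr9:106247681-106247980, minus strand), the window of the more upstream of 2 Alad starts (chr4:62520014-62520313, minus strand) and the Urod window (chr4:116994364-116994663, minus strand). Capitals mark matches to the E-box CACGTG, to which CLOCK:BMAL1 binds, or to GCGCATGC, the core of sites for nuclear respiratory factor 1 (NRF1).
Alas1: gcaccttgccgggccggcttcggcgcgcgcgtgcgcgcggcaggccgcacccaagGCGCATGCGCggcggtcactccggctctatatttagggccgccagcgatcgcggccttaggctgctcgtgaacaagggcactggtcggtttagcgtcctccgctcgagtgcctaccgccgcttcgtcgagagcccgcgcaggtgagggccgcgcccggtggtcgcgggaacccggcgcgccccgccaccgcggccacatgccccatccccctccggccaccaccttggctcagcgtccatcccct
Alad: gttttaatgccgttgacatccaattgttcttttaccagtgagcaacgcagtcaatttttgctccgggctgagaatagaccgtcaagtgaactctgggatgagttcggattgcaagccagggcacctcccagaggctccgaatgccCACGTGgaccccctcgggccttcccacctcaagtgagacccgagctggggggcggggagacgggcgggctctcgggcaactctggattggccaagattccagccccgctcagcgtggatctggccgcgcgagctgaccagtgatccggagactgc
Urod: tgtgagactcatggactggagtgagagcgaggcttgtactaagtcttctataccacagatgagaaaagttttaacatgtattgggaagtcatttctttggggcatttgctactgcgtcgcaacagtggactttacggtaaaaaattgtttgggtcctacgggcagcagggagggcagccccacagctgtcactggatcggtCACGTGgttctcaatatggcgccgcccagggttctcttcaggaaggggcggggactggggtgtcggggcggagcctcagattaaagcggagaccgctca
In the Alas1 window the NRF1 core begins 195 bases before the start and overlaps a match on the opposite strand that begins 193 bases before it. The E-box begins 105 bases before the start in the Alad window and 49 bases before it in the Urod window. The motifs searched, on both strands, were chosen with these windows in view, and are the E-box, the NRF1 core, the D-box TTATGTAA, the nuclear receptor half-site AGGTCA and the cyclic AMP response element TGACGTCA. An E-box was found in 3 of the 6 matched genes (Alad, Uros and Urod) and in 8.09% of all 27025 genes (7.15% of 32851 windows), and the NRF1 core in 1 of the 6 (Alas1) and in 3.05% of all genes (2.71% of windows). The D-box, the half-site and the cyclic AMP response element occur in 0.938%, 16.3% and 1.79% of all windows and in no window of the 6 genes. A match is a run of letters and was not tested for binding.

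The samples were alike in scale. Size factors computed from the table lay between 0.976 and 1.05, and since the table holds scaled coverage and not counts, no counting interval is given. Hepatocyte markers were high throughout, with a summed level of 79771 to 154769 rpbp over 6 genes, those of 6 endothelial and 5 stellate markers were 190 to 227 and 188 to 246 rpbp, and 5 lymphocyte markers summed to 3.28 to 11.2 rpbp. Both ZT2 libraries stood apart: Alb was 50445 and 53126 rpbp there and at least 93174 in the other 10, Apoa1, another hepatocyte marker, was 17423 and 17762 there and 7866 to 15191 elsewhere, and the sum of 6 Kupffer cell markers was 572 and 571 rpbp there and 281 to 459 elsewhere. The 6 of 11 listed erythroid markers that are in the table, without Alas2, summed to 98.6 to 920 rpbp, highest in ZT10 replicate 2. Most of this sum was the globins Hbb-b1 (63.3 to 598 rpbp) and Hba-a2 (33.8 to 317), while Klf1 was at 7.96 rpbp or less and Slc4a1 and Epb4.2 at 0.88 or less. In bulk liver, fewer cells of a type and less RNA per cell cannot be told apart. The ZT2 libraries also make up a whole time point, so a change with time of day cannot be told apart from a library effect. Among the RNA-Seq libraries, the study reports the lowest shares of uniquely mapped sequences for both of ZT2, and a link was not tested. Results are therefore also given without the ZT2 libraries where these decide a call, and the part of other cell types in the results was not tested.

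Alas1 mRNA had a sharp maximum at ZT10, late in the light phase. In series 1 its level was 109, 126, 867, 204, 194 and 66.9 rpbp at ZT2, 6, 10, 14, 18 and 22. In series 2 it was 216, 469, 815.5, 206, 41.1 and 134.5 rpbp. Both ZT10 samples lay above all 10 others, and the mean at ZT10 was 841 ± 36.5 rpbp (SD, n = 2) against 101 ± 47.8 at ZT22, an 8.35-fold difference of means. The series agreed closely at ZT10 and ZT14 and far less at ZT2, ZT6, ZT18 and ZT22. At ZT18 the 2 samples differed 4.62-fold on the log2(rpbp + 1) scale, more than at any other time point. The highest of the 12 values was 21.1 times the lowest, or 13.0 times without ZT18 replicate 2, and the coefficient of variation (CV, SD over mean) was 97.7%, at the 99th percentile of expressed genes.

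Rhythm was measured by F24, the share of the variance of the 12 values taken by a 24 hr sinusoid, with a p-value from permuting their order. For Alas1 F24 was 0.570 (permutation p = 0.00622, 0.0714 after Benjamini-Hochberg adjustment over expressed genes), with a phase at ZT9.47. The gene was called rhythmic, which requires p below 0.05, F24 above 0.45 and a highest over lowest value above 1.5, but not strongly rhythmic (F24 above 0.6 and a higher minimum ratio). A test of the 6 time points that assumes no sinusoid (limma moderated F-test) gave an adjusted p of 0.0871. Within single series the phase was ZT10.7 and ZT8.46, and F24 was 0.501 and 0.773 (exact permutation p = 0.117 and 0.0667 over 720 orders of 6 values). Without both ZT2 libraries the call was lost, at F24 0.555 and permutation p = 0.0536.

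**Figure D1:**
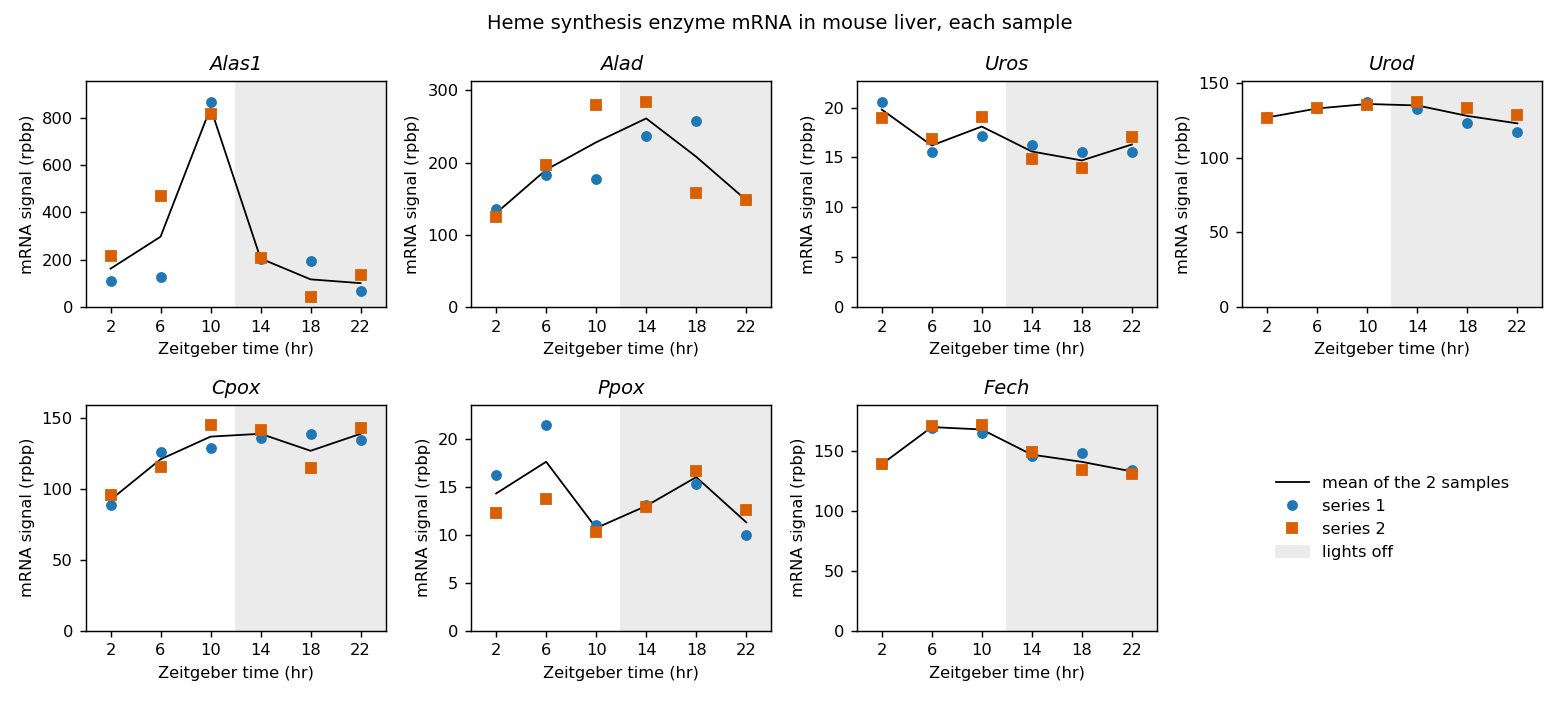
mRNA signal (rpbp, y axis from 0, a scale of its own in each panel) of the 7 enzymes against Zeitgeber time (hr), with circles for series 1, squares for series 2, a line through the mean of the 2 samples and grey for darkness. Alas1 reaches 867 and 815.5 rpbp at ZT10 and no more than 469 elsewhere, while Urod stays between 117 and 138.

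Alad, which encodes the second enzyme, had its highest mean at ZT14, early in darkness. Its level in series 1 was 136, 183, 177, 237, 257 and 149 rpbp from ZT2 to ZT22. In series 2 it was 125, 196, 280, 284, 158 and 148 rpbp. The 2 ZT2 samples were the lowest of the 12, the series were closest at ZT22 (SD 0.198 rpbp) and differed most at ZT18, by 1.63-fold. The mean was 261 ± 33.3 rpbp (SD, n = 2) at ZT14 and 130 ± 8.15 at ZT2, a 2-fold difference. Alad was called strongly rhythmic (F24 0.659, permutation p = 0.0116, adjusted p = 0.0932, phase ZT12.9, highest over lowest 2.28). In single series the phase was ZT15.0 and ZT11.6 (F24 0.715 and 0.906, exact permutation p = 0.167 and 0.0667), and the maximum was at ZT18 in series 1 and at ZT14 in series 2. At ZT6, ZT10 and ZT18 globin mRNA differed between the series in the same direction as Alad. Hba-a2 was 60.6 and 69.8 rpbp at ZT6, 67.3 and 317 at ZT10, and 222 and 99.4 at ZT18. The direction was opposite at ZT2 (68.0 and 104) and ZT14 (186.5 and 119). At ZT22 Hba-a2 was 33.8 and 143.6 rpbp, while Alad hardly differed. Over the 12 samples the log2 level of Alad had r = 0.620 with Hba-a2 and 0.434 with Hbb-b1. The part of blood cells in the Alad values was not tested. The limma test of time points gave an adjusted p of 0.103, and without both ZT2 libraries the rhythm call was lost (F24 0.533, permutation p = 0.0801).

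Uros, the uroporphyrinogen III synthase gene, was expressed at a low level. It measured 20.6, 15.5, 17.2, 16.3, 15.6 and 15.5 rpbp in series 1, from ZT2 to ZT22. Series 2 gave 19.0, 16.9, 19.1, 14.9, 13.9 and 17.0 rpbp. The highest mean was at ZT2 (19.8 ± 1.13 rpbp, SD, n = 2) and the lowest at ZT18 (14.7 ± 1.16), and neither test called it (F24 0.390, permutation p = 0.115; limma adjusted p = 0.127). Its highest over lowest value, 1.48, was also below the minimum.

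Urod, whose product removes carboxyl groups from the ring, was the steadiest of the 7. In series 1 its level was 127, 133, 137, 132, 123 and 117 rpbp from ZT2 to ZT22. In series 2 it was 127, 133, 135, 138, 133 and 129 rpbp. All 12 values lay within 1.175-fold, and the CV of 4.69% was at the 0.43rd percentile of expressed genes. Within this narrow range the values followed a sinusoid, with F24 0.661 (permutation p = 0.00627, adjusted p = 0.0717) and a phase at ZT10.5. Each series on its own gave the smallest p that 720 orders allow (exact permutation p = 0.0167, F24 0.965 and 0.94), with phases at ZT9.43 and ZT12.6. The amplitude was below the minimum, so Urod was not called, and the limma adjusted p was 0.636.

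Cpox, the coproporphyrinogen oxidase gene, was low at ZT2 and level afterwards. Series 1 gave 88.8, 126, 129, 136, 139 and 134.5 rpbp from ZT2 to ZT22. Series 2 gave 96.0, 115.5, 145, 142, 115 and 143 rpbp. Both ZT2 samples were below all 10 others, with a mean of 92.4 ± 5.09 rpbp (SD, n = 2) against 139 ± 4.10 at ZT14. Cpox was the 1 member with a limma adjusted p below 0.05 (0.0427, where 17.6% of expressed genes passed), and its F24 of 0.426 missed the minimum (permutation p = 0.0818). With series as a covariate the limma adjusted p of Cpox was 0.0699, above the limit. The limma call rests on ZT2, since the adjusted p was 0.597 without both ZT2 libraries, and it was lost on leaving out any 1 library other than the 2 of ZT18, with adjusted p from 0.0507 to 0.206.

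Ppox, the protoporphyrinogen oxidase gene, had the lowest level of the 7 and no 24 hr pattern. Its values were 16.2, 21.4, 11.04, 13.1, 15.3 and 9.96 rpbp in series 1, from ZT2 to ZT22. In series 2 they were 12.3, 13.8, 10.3, 12.9, 16.7 and 12.6 rpbp. The samples at ZT6 differed most between series, by 1.52-fold, and the ZT10 samples were among the 3 lowest. The spread was wide (CV 23.3%, highest over lowest 2.15) but F24 was 0.036 (permutation p = 0.871), at the 6.13th percentile, and the phases of the series lay 9.97 hr apart.

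Fech, whose product inserts iron to complete heme, had the highest F24 of the 7 at a small amplitude. The gene is protein-coding and lies at chr18:64616204-64648720 on the minus strand (mm9). In series 1 it measured 139, 169.5, 165, 146, 148 and 134 rpbp from ZT2 to ZT22. In series 2 it measured 139, 171, 171.5, 149, 134 and 131 rpbp. The 4 samples of ZT6 and ZT10 were above the other 8, with means of 170 ± 1.24 and 168 ± 4.67 rpbp (SD, n = 2) against 133 ± 2.60 at ZT22. F24 was 0.831, at the 98th percentile (permutation p = 0.00089, adjusted p = 0.0290), and the phases of the series, ZT8.90 and ZT8.64, lay 0.265 hr apart. The highest over lowest value of 1.31 kept it out of the rhythmic class. The limma adjusted p was 0.0592. Without both ZT2 libraries F24 was 0.890 (permutation p = 0.00353).

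Over the pathway, 2 of the 7 enzymes (Alas1 and Alad) were called rhythmic, where 19.0% of expressed genes were, and 1 (Alad) strongly rhythmic, against 7.89%. By p below 0.05 and F24 above 0.45 at any amplitude the count was 4 of 7 against 26.1% of genes, with Urod and Fech added. By adjusted permutation p alone it was 1 of 7 (Fech) against 5.84%. The median F24 of the 7 was 0.570 and the median highest over lowest 1.63, beside 0.310 and 1.64 over all expressed genes. Alas1 and Alad were called in each of the 12 fits that left out 1 library, and Cpox was added without ZT18 replicate 2 or ZT22 replicate 2. In a single series no member was called, where 286 and 369 of the 10198 genes were. Without both ZT2 libraries no member was called either, where 15.1% of expressed genes were.

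**Figure D2:**
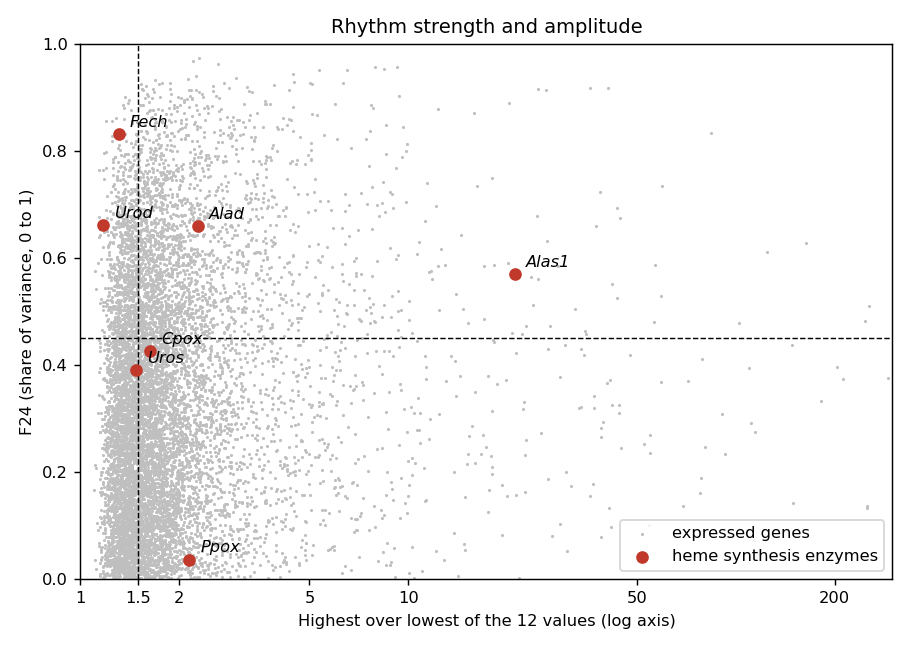
F24 (y axis, share of variance) against the highest over lowest of 12 values (x axis, log scale) for expressed genes in grey and the 7 enzymes in red, with dashed lines at 0.45 and 1.5; genes with a lowest value of 0 or a ratio beyond the axis are not drawn. Alas1 (21.1, 0.570) and Alad (2.28, 0.659) lie past both lines, and Urod (1.175, 0.661) and Fech (1.31, 0.831) past the F24 line only.

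The design allows Alas1 to be set against each other step within a sample. Alas1 mRNA was 4.90 and 2.91 times Alad at ZT10, and 0.45 and 0.907 times Alad at ZT22. Relative to Fech it was 5.26 and 4.75 times at ZT10, and 0.498 and 1.03 times at ZT22. The log2 ratio of Alas1 to the other enzyme had a 24 hr pattern for 5 of 6 (F24 0.534 for Alad, 0.626 for Uros, 0.569 for Urod, 0.612 for Cpox and 0.538 for Fech, with permutation p adjusted over all genes of 0.0347 to 0.0425). For Ppox the ratio gave F24 0.490 and an adjusted p of 0.0545. The same test called 87.6% of the 10197 other expressed genes, with a median F24 of 0.592, so these calls are near the background and say no more of the enzymes than of most genes. The phases of the 6 ratios were between ZT7.94 (Alad) and ZT9.54 (Uros). The 5 calls were all lost on leaving out any of 8 libraries (replicate 1 of ZT2, ZT10, ZT14 or ZT22, or replicate 2 of ZT6, ZT10, ZT14 or ZT18), and also without both ZT2 libraries. In each of these fits the test called 0 of the 10197 genes, so the loss is not particular to the enzymes, and F24 itself could stay alike (0.543 for Alad without ZT2 replicate 1).

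**Figure D3:**
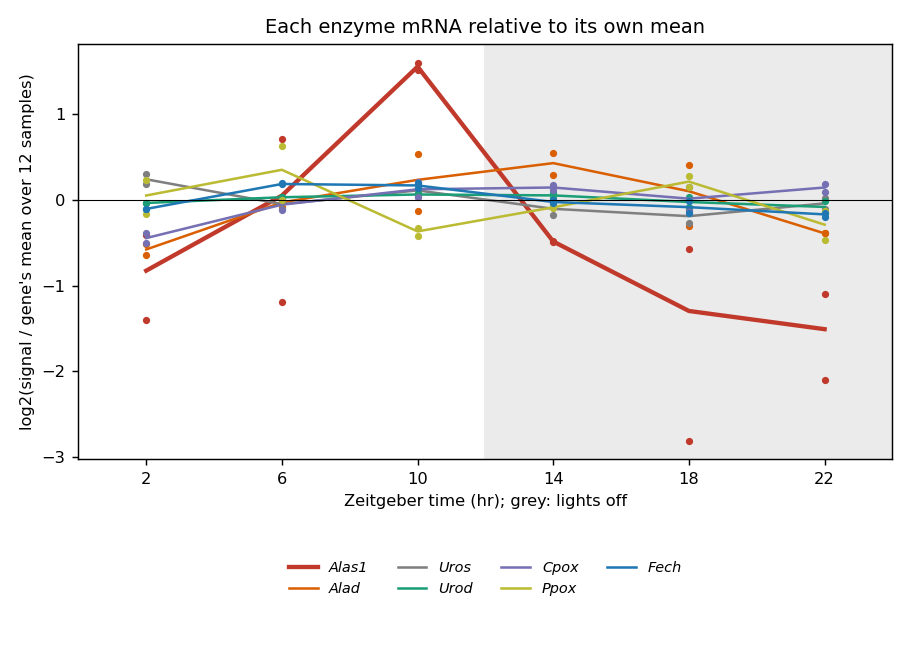
Log2 of signal over the gene's own mean of 12 samples (y axis) against Zeitgeber time (hr), with a line through the time-point means, 1 dot per sample and grey for darkness. Alas1, in red, spans a 21.1-fold range (13.0-fold without ZT18 replicate 2) with its maximum at ZT10, and the other 6 enzymes span 1.175-fold to 2.28-fold.

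The signal is per base pair over all annotated exons of a gene, whatever the isoform, so levels are set side by side as a description only. Annotated exons that liver does not use would lower the value, and which exons are in use was not tested. Uros and Ppox have 3576 and 4515 annotated exon bases (GENCODE). The mean levels over 12 samples were 287 rpbp for Alas1, 194 for Alad, 150 for Fech, 130 for Urod, 126 for Cpox, 16.8 for Uros and 13.8 for Ppox, where the median expressed gene was at 22.9 rpbp. The first place of Alas1 rests on its maximum, since it lay above Alad in 4 of 12 samples. Alad was above Fech in 10 of 12 samples, Fech above Urod in 12 and Urod above Cpox in 6. Cpox was 7.49 times Uros and above it in 12 of 12 samples, and Uros was above Ppox in 10. The order of neighbours thus changed between samples except for Fech over Urod and Cpox over Uros. Alas1 had the highest signal of the 7 in 4 samples (both of ZT10 and replicate 2 of ZT2 and ZT6), Alad in 7 and Fech in 1. The share of Alas1 in the summed level of the 7 was 57.7% and 51.7% at ZT10, 42.0% in ZT6 replicate 2 and 6.72% in ZT18 replicate 2, the lowest.

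Across the 12 samples Fech followed Alas1 most closely among the enzymes (log2 levels, Pearson r = 0.749, permutation p = 0.00498, adjusted p = 0.211; Spearman rho = 0.664, permutation p = 0.0213, adjusted p = 0.506). Without the 2 samples farthest from the Alas1 median (ZT18 replicate 2 and ZT10 replicate 1) r was 0.694. For the others r with Alas1 was 0.494 (Urod), 0.456 (Alad), 0.443 (Uros), 0.230 (Cpox) and -0.440 (Ppox), with adjusted permutation p from 0.465 to 0.767. The median r over all expressed genes was 0.00843, and 0 of 10197 genes passed an adjusted p of 0.05 by Pearson's r. Alad had its highest r among the enzymes with Cpox (0.681). Among the 5 expressed genes most like Alas1 were 4631416L12Rik (r = 0.929), Grpel1 (0.895), mD53 (0.893) and AK134369 (0.893), each with an adjusted permutation p of 0.0909; by Spearman's rho AK134369 passed (rho = 0.951, adjusted permutation p = 0.0340). The first of these was 41.0 and 39.0 rpbp at ZT10 and 10.04 to 24.8 elsewhere. The 5 most like Alad, given as a description, were Mdh2 (0.937), Rbp4 (0.934), Pi4k2b (0.933), Tns1 (0.929) and mKIAA0933 (0.907). Mdh2 encodes mitochondrial malate dehydrogenase and Rbp4 the retinol carrier of plasma.

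Of 15 other genes of heme synthesis and mitochondrial transport, all expressed, 5 were called rhythmic (19.0% of expressed genes were) and 1 of them strongly, and 4 of the 15 differed between time points by the limma test (17.6%). Clpx, which encodes the unfoldase of a mitochondrial protease that acts on ALAS1, had its lowest mean at ZT10, the time point of the highest Alas1 mean. Its level was 70.1 and 75.8 rpbp at ZT10 and 310 and 298 at ZT18, with no overlap between these time points, while its ZT6 values of 84.4 and 73.0 overlapped those of ZT10 (F24 0.928, permutation p = 0.00021, adjusted p = 0.0151, phase ZT21.2). Abcb10, an inner-membrane transporter gene, had a like phase at ZT21.8 (F24 0.718), with means of 41.4 ± 0.311 rpbp at ZT18 and 27.4 ± 0.990 at ZT10 (SD, n = 2). Tmem14c, which encodes a porphyrin transporter, peaked at ZT10 (298 ± 4.64 rpbp, against 204 ± 21.0 at ZT2; F24 0.716). Pgrmc1, whose product binds heme and ferrochelatase, was 3102 ± 222 rpbp at ZT10 and 2026 ± 154 at ZT2 (F24 0.586). The fifth, Slc25a37 (mitoferrin 1), had F24 0.532 and its lowest levels, 26.2 and 29.3 rpbp, at ZT2. Tmem14c, Pgrmc1 and Slc25a37 all had their lowest mean at ZT2, the time point whose libraries stood apart. Without both ZT2 libraries 3 of the 15 were called (Clpx, Abcb10 and Pgrmc1, with F24 0.958, 0.705 and 0.616), where 15.1% of expressed genes were, and 1 by limma (Clpx), where 4.60% were.

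Alas2, the form of the first enzyme known from red blood cell precursors, was listed at 172 to 258 rpbp in these livers and was not rhythmic (F24 0.236, permutation p = 0.292). Its mean level was 211 rpbp, near that of Alad and of the globin Hbb-b1 (220 rpbp). Alas2 varied less between samples, with a CV of 14.9% against 67% for Hbb-b1. Both genes were highest in ZT10 replicate 2 (258 and 598 rpbp). In ZT22 replicate 1 Hbb-b1 was at its lowest (63.3 rpbp), while Alas2 was 255.6 rpbp. The part of blood cells in the Alas2 level was not tested.

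Of 10 genes of heme breakdown, binding and transport, 9 are in the table and 7 were expressed. By F24 1 of the 7 was rhythmic, where 19.0% of expressed genes were, and by the limma test 3 of the 7 differed between time points (Hpx, Hmox2 and Blvrb, adjusted p = 0.0169, 0.0191 and 0.0430), where 17.6% did. The rhythmic gene was Blvrb, which encodes a biliverdin reductase, at 206 ± 28.7 rpbp at ZT10 and 136 ± 4.30 at ZT2 (SD, n = 2; F24 0.746, permutation p = 0.00254, adjusted p = 0.0472, phase ZT10.2). Its lowest mean was at ZT2, and without both ZT2 libraries it was still called (F24 0.761, permutation p = 0.00608), while none of the 7 genes passed the limma test, where 4.60% of expressed genes did. Flvcr1, which encodes a heme exporter, and Flvcr2 did not reach the minimum, with time-point means of 5.26 rpbp or less.

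Among 14 genes listed as transcriptional regulators of Alas1, which include core clock genes, 12 were expressed and 11 were called rhythmic (19.0% of expressed genes were), 10 of them strongly (7.89%), and 11 differed between time points by the limma test (17.6%). The list was written with earlier results of these data known, so these counts are a description only. Nr1d1, which encodes the heme-binding repressor REV-ERBα, was 142 and 108 rpbp at ZT6 and 3.80 to 6.6 rpbp at ZT14 and ZT18 (F24 0.660, phase ZT5.33). Its last exon overlaps that of Thra on the opposite strand, so part of its signal may belong to that gene. Its paralog Nr1d2 had its phase at ZT8.05 (F24 0.885). Dbp and Tef, PAR bZIP activator genes, had phases at ZT7.36 and ZT9.96, the second within 1 hr of Alas1, and Hlf, the third of the family, at ZT11.0. Arntl, Clock and Npas2, whose products form the CLOCK:BMAL1 and NPAS2:BMAL1 activators, had phases at ZT21.1, ZT21.2 and ZT21.9. The receptor genes Nr1i3 (CAR) and Nr1i2 (PXR) had phases at ZT12.0 and ZT13.1, and Nr1i3 was 252 and 240 rpbp at ZT10 and 55.0 and 54.8 at ZT2. Foxo1 had its phase at ZT11.4 (F24 0.790). Egr1 was expressed but not rhythmic (F24 0.085), and Ppargc1a and Nrf1, which encode coactivator PGC-1α and NRF1, did not reach the minimum. Without both ZT2 libraries 9 of the 12 were called rhythmic, with Nr1i2 and Hlf lost, where 15.1% of expressed genes were, and 8 passed the limma test, where 4.60% did.

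**Figure D4:**
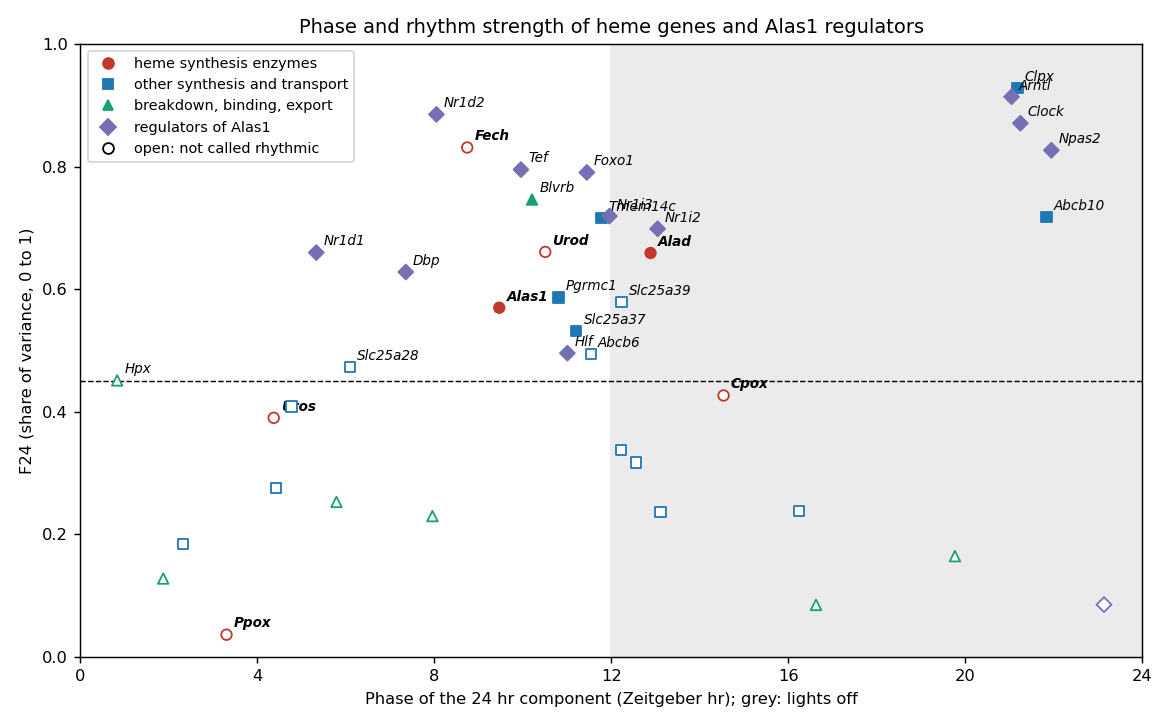
F24 (y axis, share of variance) against the phase of the 24 hr component (x axis, Zeitgeber hr, grey for darkness) of the 7 enzymes, other heme genes and regulators of Alas1, with filled symbols for genes called rhythmic and a dashed line at 0.45. Alas1 (ZT9.47), Urod (ZT10.5) and Fech (ZT8.75) lie in the late light phase with Tef and Nr1d2, and Clpx and Abcb10 lie near ZT21 to ZT22 with Arntl, Clock and Npas2.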

How the data were processed

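Liver RNA was measured in 12 samples (6 time points, 2 series). Per the labels and the study's methods, libraries were made with a TruSeq kit from total RNA, sequenced on a HiSeq2000, processed with CASAVA 1.8, and mapped to mm9 with TopHat, keeping unique hits (TopHat's version is not given in the sources used here). The authors deposited a signal per gene: coverage over flattened exons without strand, in reads per base pair, scaled to 10000000 uniquely mapped sequences per sample. It was multiplied by 4, the study's scale of 40000000. Signal is not a count, so no count test was used and no counting error can be read from it. The numbers of sequences per library were not used in any test here. The last columns are headed ZT20 and were taken as ZT22, the labels' time point. The deposited F24, phase and p-value columns are the authors' own comparison and were not used.

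F24 was computed by Fourier analysis of the 12 values (Python 3.11.15, numpy 2.4.6), with 100000 permutations of their order and Benjamini-Hochberg adjustment over 10198 expressed genes. limma 3.58.1 (R 4.3.3) tested the 6 time points on log2(rpbp + 1). Ratios and correlations used the same scale, and fold differences between replicates are on it. Scripts were tested on simulated data. The alternatives covered the expression minimum, pseudocount, scaling, series as a block and left-out libraries.

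The members and gene lists were chosen with earlier results of these data known. Genes named are the 7 enzymes, Alas2, listed regulators, up to 4 called genes per other list by F24, and the 5 genes most like Alas1 or Alad. Slc25a37, Hpx, Hmox2, Flvcr1, Flvcr2 and B4galt3 were named outside this rule, after their values were seen, as were marker genes. Some genes that the rule names are not reported here.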

Additional observations from a re-analysis of the deposited data

How the results depend on the processing

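With 1942 genes and 2 enzymes rhythmic in the fit described, the 2 enzymes were also called with no expression minimum, a minimum of 16 rpbp, log2 values with either pseudocount (1 or 0.1), size factors, 10000 permutations and the amplitude of time-point means, with 1470 to 2771 genes. With the F24 and amplitude minimums kept, an adjusted permutation p below 0.05 left 512 genes and 0 enzymes, and limma with a 24 hr cosine and sine (adjusted p below 0.05) 828 genes and 1 enzyme (Alad). Fech passed both adjusted p limits (0.0290 and 0.0369) and missed the amplitude minimum. Without replicate 1 the count was 369 genes and without replicate 2 it was 286, with 0 enzymes in both, and leaving out 1 library gave 1591 to 1992 genes and 2 to 3 enzymes. Without both ZT2 libraries, a setting chosen after seeing the data, 1543 genes (15.1% of expressed genes) and 0 enzymes were rhythmic. The cause of these changes was not tested.

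The limma test of time points called 1792 genes (3789 at an unadjusted p below 0.05) and 1 enzyme. It called 1216 genes and 0 enzymes with no expression minimum, and 1809 genes and 2 enzymes with a minimum of 16 rpbp. Leaving out 1 library gave 724 to 1676 genes and 0 to 2 enzymes, and without both ZT2 libraries 469 genes and 0 enzymes. Leaving out ZT18 replicate 1 gave Alas1 an adjusted p of 0.0380. The ratio test called 8930 genes and 5 of 6 enzymes. It called 0 genes and 0 enzymes without replicate 1, without replicate 2 and without both ZT2 libraries, and 0 to 9983 genes and 0 to 6 enzymes on leaving out 1 library. In a single series of 6 values the smallest exact permutation p is 0.0167, which limits what an adjustment over all genes can call. The correlation with Alas1 called 0 genes in the fit described, on linear values and without 2 samples.

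Replicate numbers did not pair the samples: over 15 pairs of time points the correlations of the differences between series ran from -0.153 to 0.206, and 2 were above 0.1. With the replicate block, F24 called 2118 genes and 2 enzymes, the limma test of time points 1395 genes and 0 enzymes (Cpox adjusted p 0.0699), the ratio test 9260 genes and 6 enzymes, and the correlation with Alas1 35 genes. Limma with the cosine, the sine and the replicate block, also chosen after seeing the data, called 624 genes and 1 enzyme, and Fech, with an adjusted p of 0.0571, no longer passed. With 2 samples per time point and no counts, small differences between time points cannot be resolved.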
